A study of Mus musculus with 2 samples.

Results

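The collagen genes of the mouse genome were followed through the cell classes of the E14.5 testis. Members were all gene rows whose symbol reads Col, a number, a and a number, which gave 44 of the 32285 genes counted. They were split by the kind of structure their proteins build into 11 fibrillar, 9 basement membrane and 24 other genes. The other genes hold 7 of the beaded filaments, 9 fibril-associated, 3 short-chain network and 4 transmembrane collagens, and Col26a1, which was put in none of these.

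Collagens are secreted or membrane-bound proteins wound into triple helices. Fibrillar chains, such as those of Col1a1, Col1a2 and Col3a1, line up into the cross-banded fibrils that give connective tissue its strength, whereas type IV chains join end to end into the sheet-like network of basement membranes. In the fetal testis a basement membrane surrounds each cord and separates the Sertoli and germ cells inside from the peritubular and interstitial cells outside, and the vessels carry one of their own.

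Whole testes of E14.5 embryos from a cross of Nr5a1-cre and Rosa-tdTomato mice had been frozen, and their nuclei were profiled for RNA and open chromatin together, with 1 library per assay. Nr5a1-cre acts in cells that express Nr5a1, a factor of the gonadal somatic lineages, and no group without either transgene was compared; how many embryos the libraries pool is not stated in the labels or methods. The methods name no sort of the nuclei. As each assay had 1 library, no difference below has a replicate check, intervals are exact 95% limits of counting error alone, and levels are UMIs of a gene per 1000000 UMIs of a class (CPM; a UMI tags 1 captured RNA molecule).

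After filtering, 7198 nuclei with a median of 7948 UMIs remained, and they fell into 13 classes when the collagen genes and the peaks near them were kept out of the clustering. The classes and their nuclei were interstitial progenitor-like (2276, from 2 clusters), contractile-like (1043), Sertoli-like (832), Leydig-like (743), surface epithelium-like (561), germ-like (444), endothelial-like (94), pericyte-like (66), mesonephric mesenchyme-like (410), erythroid-like (45) and immune-like (68), besides 529 nuclei led by Lhx1 and 87 led by Pax8 that were given no cell type. Between 7 of 7 and 9 of 9 markers stood highest in their own class for the immune, erythroid, Leydig, endothelial and pericyte lists, against 8 of 9 for Sertoli, 6 of 7 for surface epithelium and 3 of 5 for mesonephric mesenchyme. Of the progenitor and contractile lists 3 of 7 each did so; the progenitor markers Pdgfra, Tcf21 and Wnt5a were highest in contractile-like nuclei. Of the 7 germ markers 2 were highest in germ-like nuclei and the other 5, Ddx4 and Dazl among them, in the Lhx1-led nuclei. The mean standardized level of the germ list was higher in Lhx1-led (2.45) than in germ-like nuclei (1.94). The Lhx1-led nuclei stayed unnamed because another marker list held more of their leading genes. At resolution 0.3 there was no Lhx1-led class, and the germ-like class held 973 nuclei. Both classes are set beside the others as background below.

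A stricter automatic doublet threshold, not used in the main levels, marked 37.8% of the germ-like and 35.1% of the endothelial-like nuclei, 20.1% of the Leydig-like and 4.79% of the progenitor-like ones. Markers of other classes reached 58.2% of their pooled level in endothelial-like and 57% in germ-like nuclei. They reached 50.2% in pericyte-like, 44.3% in Pax8-led and 40.6% in immune-like nuclei, against 21% in the class with the lowest share, surface epithelium-like. These markers came from the Sertoli, Leydig, germ, endothelial and immune lists only, so the shares do not measure mesenchymal RNA directly. Median depth ran from 5676 UMIs in immune-like to 18491.5 in germ-like nuclei. Levels without the marked nuclei or with an estimate of free RNA subtracted are therefore given beside several collagen levels in these classes. For pericyte-like nuclei they are given for Col15a1 only. The part of doublets and free RNA in any single level was not tested.

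Summed over all members, the mesenchymal classes held the highest collagen levels. All 44 genes together made up 0.763% of the UMIs of mesonephric mesenchyme-like, 0.714% of progenitor-like and 0.661% of contractile-like nuclei, against 0.224% of Leydig-like, 0.215% of Sertoli-like and 0.113% of Lhx1-led nuclei. The groups peaked in different classes. Fibrillar genes summed to 4024 CPM in mesonephric mesenchyme-like and 3339 in contractile-like nuclei. Basement membrane genes stood at 2332 CPM in pericyte-like, 1981 in progenitor-like and 1966 in endothelial-like nuclei, and the remaining genes at 2501 CPM in progenitor-like nuclei, where Col25a1 alone gave 58.4% of them. Surface epithelium-like nuclei had nearly as much fibrillar collagen RNA as progenitor-like ones, 2589 against 2655 CPM, but 1.99-fold (1.93 to 2.04) less basement membrane collagen RNA.

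**Figure D1:**
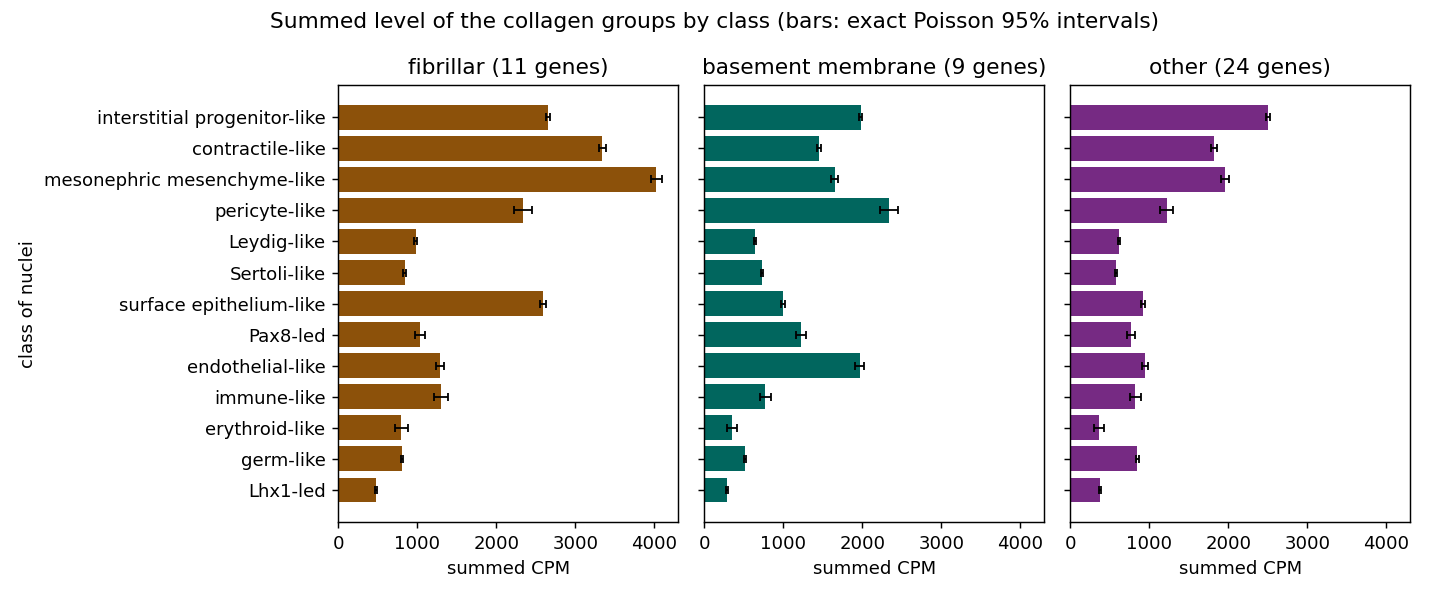
Summed CPM of the fibrillar, basement membrane and other collagen genes (x axis) in the 13 classes of nuclei (y axis); whiskers are exact Poisson 95% intervals and cover counting error only. The fibrillar bar is longest in mesonephric mesenchyme-like nuclei (4024 CPM), the basement membrane bar in pericyte-like nuclei (2332 CPM) and the bar of the other genes in progenitor-like nuclei (2501 CPM).

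Of the 44 genes 42 had at least 50 UMIs; Col10a1 had 35 and Col11a2 had 45. Of these 42, 30 had their highest CPM in a mesenchymal class (progenitor-like, contractile-like, mesonephric mesenchyme-like or pericyte-like), while 14.8% of all 17046 genes with as many UMIs did. Mesonephric mesenchyme-like nuclei were the highest for 17 of the 42 (all genes 3.42%), contractile-like and pericyte-like nuclei for 5 each (all genes 3.24% and 6.22%) and progenitor-like nuclei for 3 (all genes 1.89%). The remaining 12 were spread over 9 classes: endothelial-like, Pax8-led and immune-like nuclei took 2 each (all genes 3.69%, 6.99% and 10.5%), and Sertoli-like, Leydig-like, surface epithelium-like, Lhx1-led, germ-like and erythroid-like nuclei 1 each (all genes 7.46%, 8.38%, 3.94%, 16.4%, 7.7% and 20.1%). For 30 of the 42 genes the level in the highest class exceeded the next one beyond counting error, as it did for 36.9% of all genes; for the other 12 the order of the first and second class was not resolved, namely Col2a1, Col5a3, Col6a1, Col6a3, Col7a1, Col9a2, Col12a1, Col14a1, Col15a1, Col17a1, Col20a1 and Col27a1. Whether an interval excludes 1 depends on the UMIs of a gene, and the class in which a gene is highest can depend on them too. These UMIs were not matched between the collagens and all genes, so both kinds of share carry this limit. The ratio of the first to the second level was at least 2 for 11 of the 42 (all genes 18.5%), among them Col5a3, whose interval held 1.

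**Figure D2:**
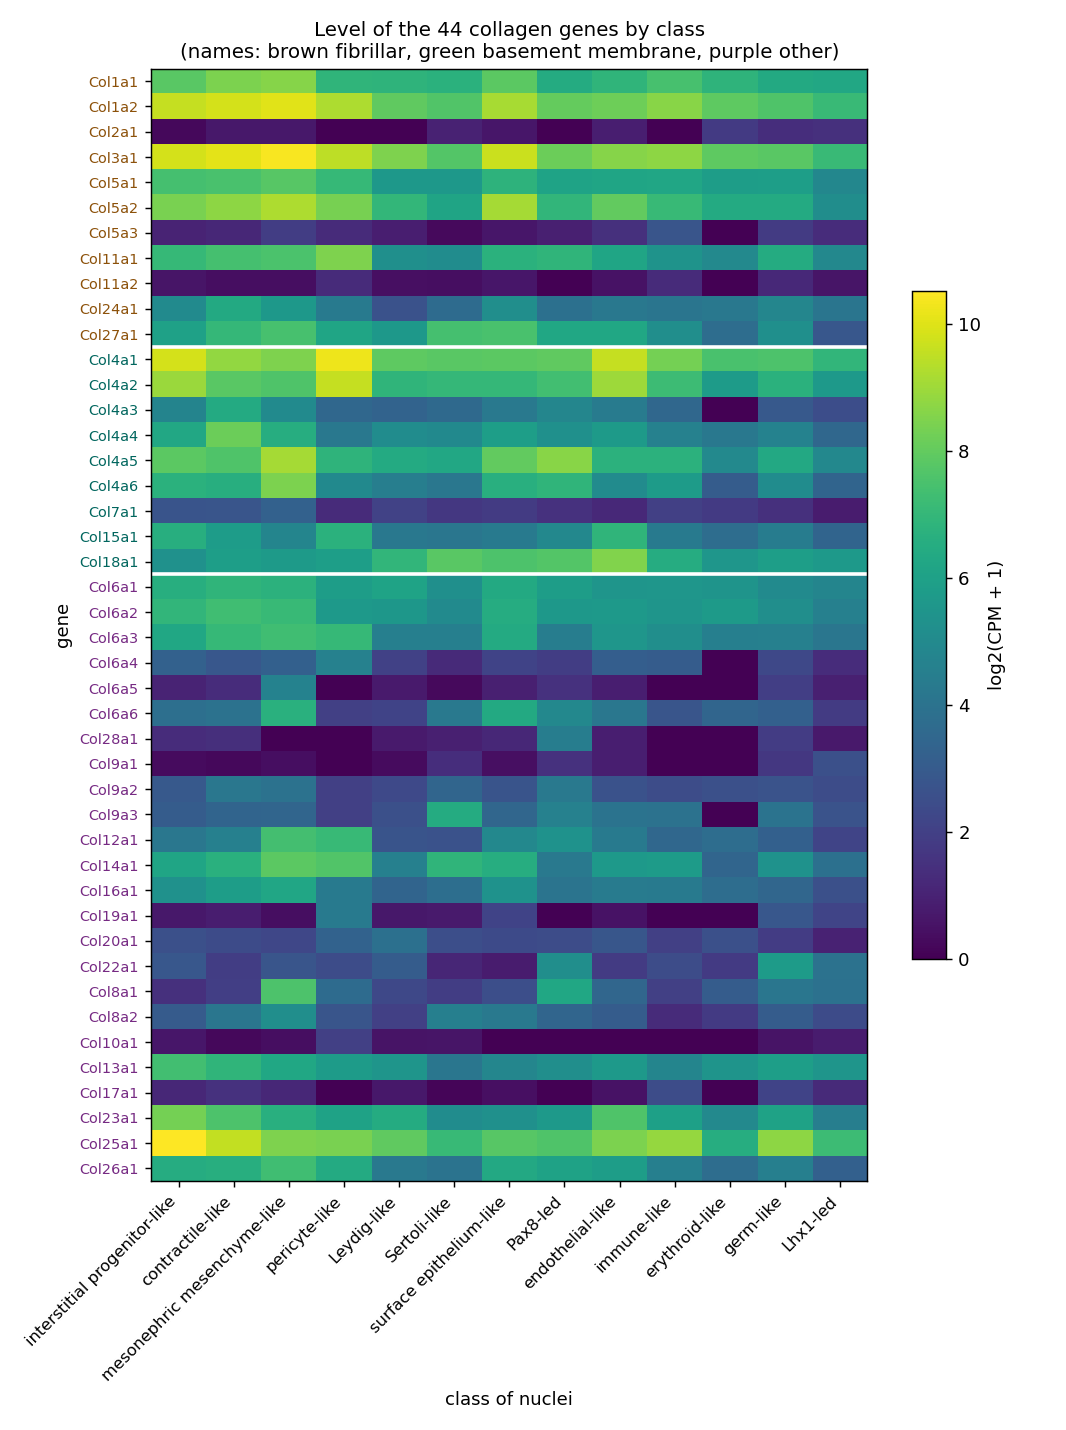
Level of each of the 44 collagen genes (rows, named in brown for fibrillar, green for basement membrane and purple for other) in the 13 classes (columns), coloured by log2(CPM + 1). Col1a2, Col3a1 and Col25a1 are bright across the mesenchymal columns, Col4a1 peaks in pericyte-like nuclei at 1228 CPM, and Col2a1, Col5a3, Col11a2 and Col10a1 stay dark throughout.

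Among the fibrillar genes Col3a1, Col1a2 and Col1a1 gave the most RNA for their length, 35.4, 28.6 and 23.4 CPM per kb of gene span in their highest class. Col3a1 encodes the single chain of type III collagen, abundant in distensible tissue. Its level was 1352 CPM in mesonephric mesenchyme-like, 1085 in contractile-like, 918 in progenitor-like, 819 in surface epithelium-like and 707 in pericyte-like nuclei. It was 423 CPM in immune-like, 386 in endothelial-like, 359 in Leydig-like, 287 in Pax8-led, 239 in erythroid-like, 225 in germ-like, 209 in Sertoli-like and 139.7 in Lhx1-led nuclei. The 5 highest were thus the 4 mesenchymal classes and the surface epithelium-like nuclei, and the lowest were the classes with germ cell markers and the Sertoli-like nuclei.

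Col3a1 was the collagen with the highest level per kb, and the stretch before its start is shown for that reason. The 250 bases before the RefSeq start of Col3a1 (GRCm38.p6, chr1:45311288-45311537, plus strand, 5′ to 3′) overlap no annotated exon and are 35.2% G and C. They hold 1 match to TATAAA, in capitals.
Col3a1: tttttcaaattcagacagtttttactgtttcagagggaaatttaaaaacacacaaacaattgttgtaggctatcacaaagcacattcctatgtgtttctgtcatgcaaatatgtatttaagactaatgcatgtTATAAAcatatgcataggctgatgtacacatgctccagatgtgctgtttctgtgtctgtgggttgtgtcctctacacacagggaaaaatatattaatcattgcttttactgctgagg
RefSeq promoter windows of 300 bases (250 before to 50 after the start) were at hand for 35 of the 44 genes; Col1a1, Col2a1, Col5a2, Col4a3, Col9a3, Col12a1, Col14a1, Col22a1 and Col26a1 were not matched. Searched on both strands, TATAAA was in 5 of the 35 windows (14.3%) and 14.2% of 27025 promoters, CCAAT in 12 (34.3%) and 37.9%, and GGGCGG in 22 (62.9%) and 35.9%. The median GC content of the 35 windows was 60%, against 52.7% over all promoters. No motif is contained in another, and a match describes the letters of a window only.

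Col1a1 and Col1a2 encode the 2 chains of type I collagen, the main protein of fibrils. Both were highest in mesonephric mesenchyme-like nuclei, Col1a2 at 1052 CPM (1017 to 1087) and Col1a1 at 393 CPM (372 to 415), followed by contractile-like nuclei at 924 and 344 CPM. In the progenitor-like class they stood at 773 and 224 CPM, in the Leydig-like class at 246 and 113, and in Sertoli-like nuclei at 200.02 and 103. The pair did not keep 1 ratio: Col1a1 UMIs were 0.289 (0.279 to 0.30) of Col1a2 UMIs in progenitor-like, 0.461 (0.426 to 0.498) in Leydig-like and 0.193 (0.15 to 0.246) in pericyte-like nuclei.

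Col5a1 and Col5a2 encode type V chains, which nucleate fibrils and limit their width. Col5a1 had its 3 highest levels in mesenchymal classes, with 216 CPM in mesonephric mesenchyme-like, 180.0 in contractile-like, 171 in the progenitor-like class and 47.4 in the Leydig-like class. Col5a2 differed in the surface epithelium-like nuclei, where its 547 CPM (527 to 566) were second only to the 597 CPM of mesonephric mesenchyme-like nuclei and 1.61-fold (1.54 to 1.68) the progenitor-like level. The ratio of Col3a1 to Col5a2 UMIs was accordingly 1.5 (1.43 to 1.57) in surface epithelium-like nuclei and 2.7 (2.62 to 2.78) in progenitor-like ones.

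Other fibrillar genes were highest elsewhere. Col11a1, a type XI chain of thin fibrils best known from cartilage, was highest in pericyte-like nuclei at 355 CPM (311 to 403), 1.9-fold (1.63 to 2.2) above mesonephric mesenchyme-like nuclei. Col24a1 was highest in contractile-like nuclei at 83.4 CPM (76.5 to 90.7), 1.75-fold (1.46 to 2.11) above the next class, with 31.4 CPM in the progenitor-like and 5.23 in the Leydig-like class. Col27a1 had near equal levels of 181 CPM in surface epithelium-like, 176 in mesonephric mesenchyme-like and 167 in Sertoli-like nuclei, and the first and second of these did not differ beyond counting error (1.03-fold, 0.93 to 1.15). It was thus the only fibrillar gene at least 2-fold higher in Sertoli-like than progenitor-like nuclei, 2.59-fold (2.4 to 2.79). Col2a1, the cartilage collagen, Col5a3 and Col11a2 were close to absent at this depth, with 59, 102 and 45 UMIs in all and no class above 5.85 CPM.

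The 6 type IV genes lie in 3 pairs that point away from each other, and the pairs differed in where they were highest. Col4a1 and Col4a2 encode the trimer of nearly all basement membranes. The level of Col4a1 was 1228 CPM in pericyte-like, 911 in progenitor-like, 772 in endothelial-like and 444 in contractile-like nuclei. It was 353 CPM in mesonephric mesenchyme-like, 319 in immune-like, 244 in Pax8-led, 235 in Leydig-like and 234 in surface epithelium-like nuclei. In the last 4 classes it was 223 CPM in Sertoli-like, 191 in germ-like, 180.1 in erythroid-like and 119 in Lhx1-led nuclei. Pericyte-like, progenitor-like and endothelial-like nuclei thus stood above the rest, and contractile-like nuclei had 2.05-fold (1.97 to 2.14) less Col4a1 RNA than progenitor-like ones.

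Col4a2 ran alongside, at 770.0 CPM in pericyte-like, 499.95 in endothelial-like, 494 in progenitor-like and 224 in contractile-like nuclei. Col4a1 UMIs outnumbered those of Col4a2 between 1.53-fold in Pax8-led and 2.36-fold in Lhx1-led nuclei among the 12 classes of at least 60 nuclei. The starts of both genes overlap, so that 22 bases lie in both transcripts, and these bases are shown because the 2 genes share a promoter (GRCm38.p6 RefSeq, chr8:11312805-11312826, plus strand, the strand of Col4a2, 5′ to 3′). A GGGCGG match is in capitals.
Col4a1 and Col4a2: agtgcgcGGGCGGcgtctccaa
A peak over these starts is counted for both genes below. In endothelial-like nuclei, without those over the automatic doublet threshold, Col4a1 was 838 and Col4a2 654 CPM, and with free RNA subtracted 1265 and 881 CPM.

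Col4a3 and Col4a4 encode chains of the trimer found in the glomerular basement membrane of the kidney. Both were highest in contractile-like nuclei. Col4a4 reached 287 CPM (275 to 301) there, 3.09-fold (2.74 to 3.5) above the next class, and was 93 CPM in mesonephric mesenchyme-like, 77.4 in progenitor-like, 58 in surface epithelium-like, 51.9 in endothelial-like, 37.9 in Pax8-led and 33.9 in Leydig-like nuclei. In the other 6 classes it lay between 10.3 and 30.6 CPM. Col4a3 was lower, at 84.1 CPM (77.2 to 91.5) in contractile-like, 31.6 in mesonephric mesenchyme-like, 27.1 in Pax8-led and 25.5 in progenitor-like nuclei. Their ratio was close in both classes of this comparison, with Col4a3 UMIs at 0.293 (0.266 to 0.322) of Col4a4 UMIs in contractile-like and 0.329 (0.295 to 0.366) in progenitor-like nuclei. Contractile-like nuclei were therefore higher than progenitor-like nuclei in this pair, by 3.71-fold (3.46 to 3.99) for Col4a4, and lower in Col4a1 and Col4a2.

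Both genes were among the 10 leading genes of the contractile-like cluster although no collagen had entered the clustering. With each nucleus thinned to 2000 UMIs, which left out 75 nuclei, 28.6% (44.5%) of contractile-like nuclei held a Col4a4 UMI, against 10.3% (23.3%) of progenitor-like nuclei and 2.48% (25.2%) of the germ-like class. Here and below the share before thinning stands in brackets; median depths before thinning were 5743, 6722.5 and 18491.5 UMIs. Pericyte-like nuclei, the other class with contractile markers, had 16.3-fold (9.29 to 31.5) less Col4a4 RNA than contractile-like ones and 2.77-fold (2.56 to 2.99) more Col4a1 RNA.

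Col4a5 and Col4a6, whose chains occur in the basement membranes of epithelia and smooth muscle, were highest in mesonephric mesenchyme-like nuclei. Col4a5 stood at 553 CPM (527 to 579), then at 396 CPM in Pax8-led, 250.3 in surface epithelium-like and 231 in progenitor-like nuclei. For Col4a6 the lead was larger, 342 CPM (322 to 363), 2.96-fold (2.47 to 3.59) above Pax8-led nuclei. Col4a5 exceeded Col4a6 by 1.62-fold (1.5 to 1.74) in mesonephric mesenchyme-like and by 4.66-fold (3.93 to 5.54) in Sertoli-like nuclei.

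**Figure D3:**
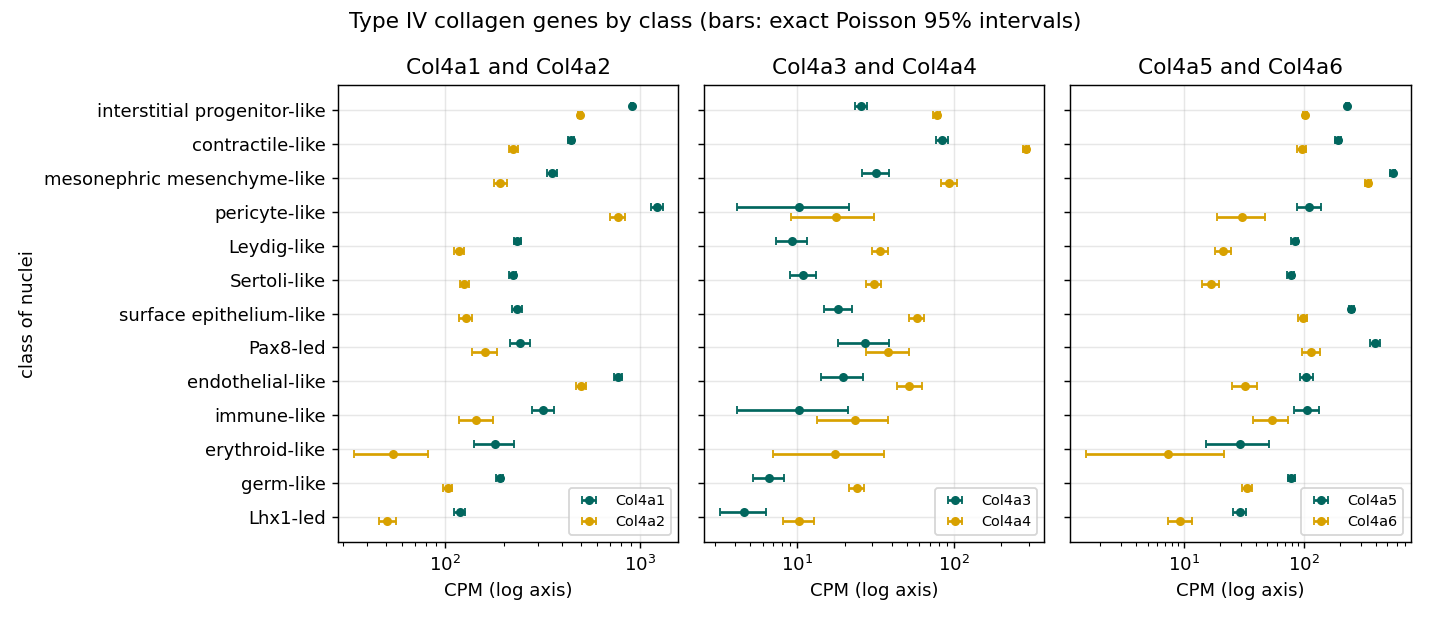
CPM (log axis) of the 6 type IV collagen genes in the 13 classes, 1 pair per panel; points are levels and bars exact Poisson 95% intervals, and a gene with no UMI in a class has no point. Col4a1 and Col4a2 are farthest right in pericyte-like nuclei (1228 and 770.0 CPM), Col4a3 and Col4a4 in contractile-like nuclei (84.1 and 287 CPM) and Col4a5 and Col4a6 in mesonephric mesenchyme-like nuclei (553 and 342 CPM).

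Col18a1, the source of endostatin and a part of vessel and epithelial basement membranes, had another order of classes than most collagens. Its level was 365 CPM in endothelial-like, 226 in Sertoli-like, 209 in Pax8-led, 190.3 in surface epithelium-like, 119 in Leydig-like and 90.7 in immune-like nuclei. In the remaining classes it was 59.1 CPM in contractile-like, 58.9 in pericyte-like, 58.5 in germ-like, 52.2 in mesonephric mesenchyme-like, 51.2 in Lhx1-led, 44.4 in erythroid-like and 39 in progenitor-like nuclei. Progenitor-like nuclei thus had the lowest value, 9.37-fold (8.46 to 10.4) below endothelial-like, 5.79-fold (5.31 to 6.31) below Sertoli-like and 3.05-fold (2.76 to 3.36) below Leydig-like nuclei. Without the nuclei over the automatic doublet threshold the endothelial-like level was 681 CPM, and with free RNA subtracted it was 733 CPM.

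Col15a1, the relative of Col18a1 in muscle and vessel basement membranes, was 118 CPM (104 to 132) in endothelial-like, 103 CPM in pericyte-like and 94.2 CPM in progenitor-like nuclei, and the first and second did not differ beyond counting error (1.14-fold, 0.875 to 1.51). Without nuclei over the automatic doublet threshold these 3 levels were 166, 94.3 and 96.5 CPM, and with free RNA subtracted 223, 164 and 111 CPM. It was between 9.37 and 55.7 CPM in the other 10 classes. Col7a1, whose protein forms the anchoring fibrils of the skin, was low throughout, with 265 UMIs in all and no more than 8.59 CPM in any class.

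Type VI collagen builds beaded microfilaments around cells from the chains of Col6a1, Col6a2 and 1 of several alternative partners such as Col6a3. Col6a1 and Col6a2 were highest in contractile-like nuclei, 117 CPM (109 to 126) and 157 CPM (147 to 167), with the Col6a1 level not resolved from mesonephric mesenchyme-like nuclei (1.08-fold, 0.952 to 1.23). Col6a2 exceeded Col6a1 in progenitor-like nuclei (Col6a1 UMIs at 0.794, 0.745 to 0.847, of Col6a2 UMIs), whereas Col6a1 exceeded Col6a2 in Leydig-like nuclei (1.44, 1.26 to 1.64). The genes of these alternative partners differed by class. Col6a3 was 157 CPM in mesonephric mesenchyme-like, 133 in pericyte-like and 129.7 in contractile-like nuclei. Col6a5 had its highest level in mesonephric mesenchyme-like nuclei at 24.5 CPM (19.5 to 30.6), from 80 of its 169 UMIs, 8.6-fold (5.73 to 13.1) above the germ-like level.

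Col6a6 was 102 CPM (90.9 to 113) in mesonephric mesenchyme-like and 83.7 CPM in surface epithelium-like nuclei, and no more than 28.9 CPM elsewhere. Col6a4 was highest in pericyte-like nuclei at 23.6 CPM (13.5 to 38.3). Col28a1, placed with the beaded filament genes for its domain make-up, had its highest level in Pax8-led nuclei at 20.8 CPM (13.2 to 31.1), from 23 of its 123 UMIs, and no more than 2.62 CPM in any other class; the germ-like class, which is larger, held 33 of the UMIs. Before thinning 9.2% of the 87 Pax8-led nuclei held a UMI, at a median depth of 10323 UMIs, against 0.567% of Lhx1-led nuclei at 13650 UMIs.

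The fibril-associated collagens bind the surface of fibrils. Col12a1 and Col14a1 were highest in mesonephric mesenchyme-like and pericyte-like nuclei, Col12a1 at 164 and 135 CPM and Col14a1 at 234 and 199 CPM. Col12a1 was 16.7 CPM in progenitor-like and 23.2 in contractile-like nuclei, so mesonephric mesenchyme-like nuclei exceeded progenitor-like ones by 9.77-fold (8.46 to 11.3). Col14a1 had more RNA in Sertoli-like (117 CPM, 110.4 to 124) than in progenitor-like nuclei (72.4 CPM), and in Leydig-like nuclei it was 22.6 CPM. Col16a1 was 73.6 CPM in mesonephric mesenchyme-like, 56.5 in contractile-like, 40.3 in surface epithelium-like and 39.3 in progenitor-like nuclei.

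Col9a3 was highest in Sertoli-like nuclei. Col9a1, Col9a2 and Col9a3 encode the chains of type IX collagen, which decorates the type II fibrils of cartilage. The Col9a3 level was 87 CPM (81.3 to 93) in Sertoli-like nuclei, 3.71-fold (2.51 to 5.71) above Pax8-led nuclei and 11.8-fold (9.8 to 14.3) above progenitor-like ones. After thinning, 16.2% (54.2%) of Sertoli-like nuclei (median depth 9851.5 UMIs) held a Col9a3 UMI, and 2.93% (21.8%) of the germ-like class did. Its partners did not follow: Col9a2 was 9.7 CPM in Sertoli-like nuclei, below the 18 of Pax8-led and 17.2 of contractile-like nuclei, and Col9a1 was 1.62 CPM, with its highest level of 4.94 CPM (3.51 to 6.75) in Lhx1-led nuclei.

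Among the rarer fibril-associated genes, Col20a1 was highest in Leydig-like nuclei at 13.8 CPM (11.4 to 16.5), 2.78-fold (2.09 to 3.71) the progenitor-like level but not resolved from pericyte-like nuclei (1.56-fold, 0.696 to 4.34), and 3.78% (13.5%) of Leydig-like nuclei (median depth 9782 UMIs) held a UMI after thinning, against 0.45% (6.53%) in the germ-like class. Col22a1 was highest in germ-like nuclei at 53 CPM (49 to 57.2), with 36.1 CPM in Pax8-led, 14.4 in Lhx1-led and 6.26 in progenitor-like nuclei. Without nuclei over the automatic doublet threshold the germ-like level was 84.1 CPM, and with free RNA subtracted 105 CPM. Col19a1 was 19.1 CPM (10.2 to 32.7) in pericyte-like nuclei, from 13 UMIs, and 6.27 CPM in germ-like nuclei.

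The short-chain genes Col8a1 and Col8a2, known from the sheet under the corneal endothelium and from vessel walls, shared the mesonephric mesenchyme-like maximum. Col8a1 was 191 CPM (176 to 207) there, 75.8 CPM in Pax8-led and 1.75 CPM in progenitor-like nuclei, a difference of 109-fold (76.3 to 162) between the first and the last and the widest of any collagen in that comparison. Col8a2 was 35.3 CPM in mesonephric mesenchyme-like, 22.4 in Sertoli-like, 18.2 in surface epithelium-like and 16.4 in contractile-like nuclei. Col10a1, the collagen of hypertrophic cartilage, had 35 UMIs in the kept nuclei.

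Col25a1 had more UMIs than any other collagen, 44705, and encodes a transmembrane collagen that nerve and muscle cells are known to use during the growth of motor axons. Spread over a gene of 468 kb, this came to 3.12 CPM per kb in its highest class, the 11th value among the collagens. Its level was 1460.5 CPM in progenitor-like, 751 in contractile-like, 455 in immune-like, 423 in germ-like and 358 in mesonephric mesenchyme-like nuclei. In the other classes it was 341 CPM in endothelial-like, 337 in pericyte-like, 248 in Leydig-like, 221 in surface epithelium-like, 195 in Pax8-led, 148 in Lhx1-led, 136 in Sertoli-like and 93.7 in erythroid-like nuclei. The immune-like level comes from 68 nuclei, of which 1 held 193940 of the 683319 UMIs. Progenitor-like nuclei led by 1.94-fold (1.89 to 2.0) over contractile-like ones, and Col25a1 was among the 10 leading genes of the larger progenitor-like cluster.

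Within the progenitor-like class, the 767 nuclei of the cluster led by cell cycle genes had 2.09-fold (2.03 to 2.15) less Col25a1 RNA than the other 1509. Outside the mesenchymal classes the Col25a1 level depended on which nuclei were kept. Without those over the automatic doublet threshold it was 16.5 CPM in Sertoli-like, 65.8 in Leydig-like, 113 in endothelial-like and 299 in germ-like nuclei. The germ-like level was thus 299 CPM beside a Col3a1 level of 91.9 CPM in the same nuclei. After thinning, 41.2% (83.3%) of germ-like nuclei held a Col25a1 UMI, against 15.9% (44.6%) in the Lhx1-led nuclei (median depth 13650 UMIs), 14% (28%) in the Leydig-like class and 64.2% (78.3%) in the progenitor-like class.

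The stretch before the start of Col25a1 is shown because the gene gave the largest count. The start is that of the RefSeq table; the GENCODE gene span behind the level per kb begins upstream of it, at 130131501 on chromosome 3, so the window lies inside that span. These 250 bases (GRCm38.p6 RefSeq, chr3:130180595-130180844, plus strand, 5′ to 3′) are 60.4% G and C, and the capitals mark 1 CCAAT and 2 GGGCGG matches, 1 of the latter on the other strand.
Col25a1: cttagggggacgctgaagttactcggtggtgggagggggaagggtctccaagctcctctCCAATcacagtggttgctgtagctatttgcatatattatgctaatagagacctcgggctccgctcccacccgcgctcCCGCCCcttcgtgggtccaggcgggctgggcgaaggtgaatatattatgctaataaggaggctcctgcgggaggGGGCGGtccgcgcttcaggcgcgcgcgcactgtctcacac
The TATAAA match of Col3a1 has no counterpart in this window.

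The other transmembrane genes Col13a1, found at neuromuscular junctions, and Col23a1 were also highest in progenitor-like nuclei, at 158 CPM (152 to 164) and 315 CPM (306 to 323). Col23a1 had 195 CPM in endothelial-like and 191 in contractile-like nuclei, and without nuclei over the automatic doublet threshold the endothelial-like level, 388 CPM, passed the progenitor-like one of 322 CPM. With free RNA subtracted it did not, at 285 against 374 CPM. Col17a1, a hemidesmosome protein of skin, had 103 UMIs. Col26a1 was 156 CPM (143 to 171) in mesonephric mesenchyme-like nuclei and 96.1, 89.6 and 85.4 CPM in contractile-like, progenitor-like and pericyte-like nuclei.

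The study asks how interstitial progenitors relate to fetal Leydig cells, and collagen RNA was lower on the Leydig-like side. Progenitor-like nuclei had 2.71-fold (2.65 to 2.78) more fibrillar, 3.09-fold (3.0 to 3.18) more basement membrane and 4.06-fold (3.94 to 4.18) more of the other collagen RNA. Of 35 collagen genes with at least 50 UMIs in both classes together, 25 were at least 2-fold higher in progenitor-like nuclei, while 15.4% of all 13296 genes with as many UMIs were. In the opposite direction, 3 of the 35 (Col8a1, whose direction turned without the nuclei over the automatic doublet threshold, Col18a1 and Col20a1) were at least 2-fold higher in Leydig-like nuclei, against 12.0% of all genes. The median log2 ratio of the 35 was 1.45 and that of all genes -0.03.

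The widest ratios towards progenitor-like nuclei were those of Col24a1 (6.0-fold, 4.41 to 8.35), Col25a1 (5.9-fold, 5.64 to 6.17), Col15a1 (5.39-fold, 4.55 to 6.42), Col26a1 (4.92-fold, 4.17 to 5.85) and Col4a6 (4.83-fold, 4.14 to 5.67). Without the nuclei over the automatic doublet threshold, which were more frequent in the Leydig-like class, the same 5 genes led with wider ratios, 24.3-fold (11.7 to 60.8) for Col24a1, 22.9-fold (20.6 to 25.4) for Col25a1 (1503 against 65.8 CPM), 16.3-fold (11.6 to 23.7) for Col4a6, 10.8-fold (8.02 to 14.8) for Col26a1 and 9.91-fold (7.56 to 13.3) for Col15a1. Of the other genes of high level, Col4a1 differed by 3.87-fold (3.69 to 4.06), Col1a2 by 3.15-fold (3.0 to 3.3), Col3a1 by 2.56-fold (2.46 to 2.66) and Col1a1 by 1.98-fold (1.84 to 2.12). Col27a1 (1.37-fold, 1.22 to 1.54) and Col6a1 (1.41-fold, 1.28 to 1.56) differed least among the abundant genes on this side. On the other side Col18a1 was 3.05-fold (2.76 to 3.36), Col20a1 2.78-fold (2.09 to 3.71) and Col8a1 2.25-fold (1.33 to 3.79) higher in Leydig-like nuclei. Without the nuclei over the automatic doublet threshold Col8a1 turned, at 2.44-fold (0.855 to 9.59) towards progenitor-like nuclei (1.76 against 0.721 CPM), an interval that holds 1, while Col18a1 and Col20a1 stayed higher in Leydig-like nuclei. Over the alternatives the fibrillar ratio lay between 2.11 and 3.81 and the ratio of the other genes between 2.68 and 6.55.

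**Figure D4:**
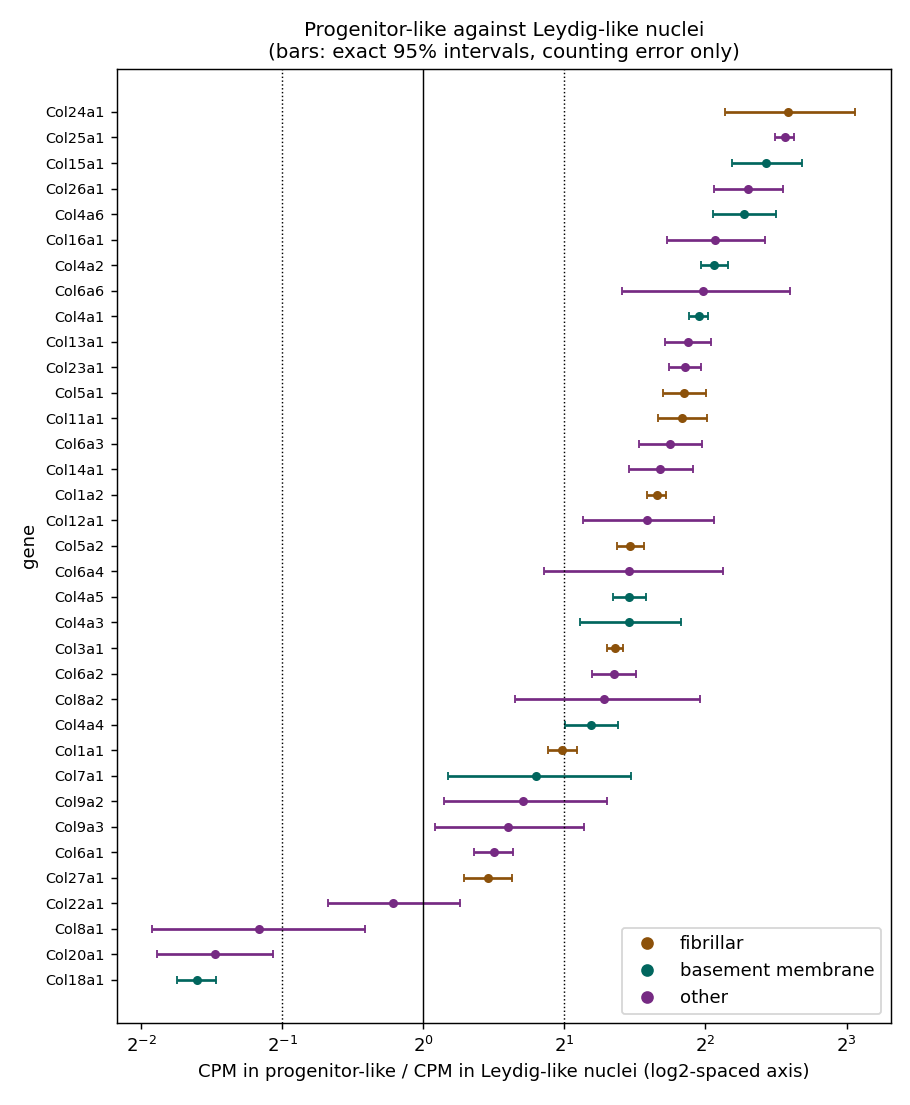
CPM in progenitor-like over CPM in Leydig-like nuclei (x axis, log2-spaced) for the 35 collagen genes with at least 50 UMIs in both classes together (y axis), coloured by group; bars are exact 95% intervals of counting error, and dotted lines mark 2-fold. Of the points 25 lie right of the upper dotted line and 3, Col18a1, Col20a1 and Col8a1, left of the lower one.

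Contractile-like nuclei had 1.26-fold (1.24 to 1.28) the fibrillar collagen RNA of progenitor-like ones and 1.37-fold (1.34 to 1.4) less basement membrane collagen RNA. At least 2-fold higher were 5 of 35 genes (Col4a3, Col4a4, Col8a2, Col9a2 and Col24a1), beside 1.94% of all genes, and 3 were at least 2-fold lower (Col4a1, Col4a2 and Col22a1), beside 4.69%. The cycling progenitor-like cluster, set against the rest of that class, was at least 2-fold higher in 4 of 34 genes, Col4a3, Col4a4, Col8a2 and Col24a1 (all genes 5.18%), and at least 2-fold lower in Col25a1 alone (all genes 2.18%). These 4 genes were also among the 5 higher in contractile-like nuclei. The contractile list came second in the cycling cluster, with a mean standardized level of 0.66 beside 1.35 for the progenitor list. In the other cluster the erythroid list came second, at 0.11. Whether the cycling cluster holds contractile-like nuclei was not tested.

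Sertoli-like nuclei, which face the cord basement membrane from inside, had 2.72-fold (2.65 to 2.79) less basement membrane and 3.15-fold (3.08 to 3.22) less fibrillar collagen RNA than progenitor-like nuclei. Of 35 genes 26 were at least 2-fold lower (all genes 12.8%) and 4 at least 2-fold higher (all genes 13.6%): Col9a3, Col18a1, Col8a2 and Col27a1. Col4a1 and Col4a2 were 4.09-fold (3.91 to 4.28) and 3.93-fold (3.7 to 4.17) lower. Beside both background classes Col4a1 stood at 223 CPM in Sertoli-like, 191 in germ-like and 119 in Lhx1-led nuclei, and at 181, 73.2 and 82.7 CPM once nuclei over the automatic doublet threshold were left out.

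Endothelial-like nuclei had 0.992-fold (0.962 to 1.02) the summed basement membrane collagen RNA of progenitor-like ones, an interval that holds 1, and 2.06-fold (1.99 to 2.14) less fibrillar RNA. The sum was made up differently: Col18a1 was 9.37-fold (8.46 to 10.4) higher, Col4a2 was at 1.01-fold (0.951 to 1.08), and Col4a5 and Col4a6 were 2.19-fold (1.92 to 2.5) and 3.17-fold (2.52 to 4.05) lower. At least 2-fold higher were 3 of 35 genes (Col8a1, Col9a3 and Col18a1; all genes 9.53%) and 11 were at least 2-fold lower (all genes 8.28%). The side on which the summed ratio fell was not settled, since it ran from 0.921 to 1.41 over the alternatives; without nuclei over the automatic doublet threshold, reclustered, it was 1.19, and with free RNA subtracted 1.41.

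Surface epithelium-like nuclei were at least 2-fold higher than progenitor-like ones in 5 of 35 genes (Col6a6, Col8a1, Col8a2, Col18a1 and Col27a1; all genes 8.10%) and at least 2-fold lower in 9 (all genes 7.29%). Col6a6 differed by 6.38-fold (5.43 to 7.5) and Col18a1 by 4.88-fold (4.43 to 5.38), whereas Col23a1 was 8.25-fold (7.19 to 9.52) and Col25a1 6.59-fold (6.23 to 6.99) lower. Mesonephric mesenchyme-like nuclei were at least 2-fold higher in 11 of 36 genes (all genes 4.36%) and at least 2-fold lower in 6 (all genes 5.67%). The 11 held the pair Col4a5 and Col4a6, 3 type VI genes and both type VIII genes, and the 6 held Col4a1, Col4a2, Col15a1 and the 3 transmembrane genes Col13a1, Col23a1 and Col25a1, while the sum over all collagens was 1.07-fold (1.05 to 1.08) the progenitor-like one.

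Pericyte-like nuclei were compared with contractile-like ones, as both carry contractile markers. They were at least 2-fold higher in 5 of 31 genes (Col4a1, Col4a2, Col6a4, Col11a1 and Col12a1; all genes 7.05%) and at least 2-fold lower in 15 (all genes 9.34%). Col12a1 differed by 5.84-fold (4.46 to 7.62) and Col4a2 by 3.43-fold (3.1 to 3.8), and Col24a1 was 4.36-fold (2.53 to 8.23) lower. Summed basement membrane collagen RNA was 1.61-fold (1.52 to 1.7) higher and fibrillar RNA 1.43-fold (1.36 to 1.51) lower, in 66 pericyte-like nuclei.

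Chromatin at the promoters was read from cuts (ends of transposed fragments) in peaks within 1 kb of a gene start, which 39 of the 44 genes had. Col15a1 had 10 such peaks, Col27a1 had 3 and Col25a1 had 1, so for some genes the cuts can cover more than 1 start. Whether the Col25a1 peak lies at the RefSeq start or at the GENCODE start was not determined. Cuts come in pairs, as 87.4% of the nonzero peak counts were even, so their intervals are too narrow. Between progenitor-like and Leydig-like nuclei, 34 genes could be compared and 18 had intervals off 1 in both RNA and cuts. Of all 12453 genes compared, 3121 (25.1%) had both off 1. For 16 of the 18 both lay on the same side, beside 79.5% of the 3121. In each of these but Col1a1 the promoter ratio was the smaller value: 1.78 (1.2 to 2.75) beside an RNA ratio of 2.56 for Col3a1, and 2.42 (1.87 to 3.16) beside 1.98 for Col1a1, and 2.86 (2.15 to 3.88) beside 4.18 for Col16a1. The 2 on opposite sides were Col4a3 and Col4a4, which share their promoter peaks: the cuts were 0.551 (0.369 to 0.838) of the Leydig-like level while RNA was 2.75 times as high for Col4a3 and 2.28 times for Col4a4.

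Another 15 of the 34 genes differed in RNA but not in promoter cuts beyond counting error (all genes 42.9%). The peak shared by Col4a1 and Col4a2 was close in both, 32.6 and 32.3 cuts per 1000000 in progenitor-like and Leydig-like nuclei, a ratio of 1.01 (0.773 to 1.33), beside RNA ratios of 3.87 and 4.18. Without nuclei over the automatic doublet threshold these RNA ratios were 6.18 and 7.04. In Lhx1-led and germ-like nuclei, with Col4a1 RNA at 119 and 191 CPM, the shared peak had 45.2 (36.2 to 55.7) and 44.6 (37.1 to 53.3) cuts per 1000000. Pericyte-like nuclei, with 1228 CPM, had 31.1 (14.2 to 58.9). Col25a1, with an RNA ratio of 5.9, or 22.9-fold (20.6 to 25.4) without the nuclei over the automatic doublet threshold, had a promoter ratio of 0.809 (0.654 to 1.01) in all kept nuclei. Between Sertoli-like and progenitor-like nuclei 22 of 34 genes had both intervals off 1 (all genes 29.7%), and 21 of these 22 lay on the same side (all genes 79.4%). Col9a3 was higher in Sertoli-like nuclei in cuts, 3.94 (2.48 to 6.32), as in RNA, and so was Col18a1, 1.57 (1.38 to 1.79). The other comparisons gave fewer genes with both intervals off 1. Over progenitor-like nuclei these were 11 of 34 for endothelial-like (all genes 9.86%), 6 of 34 for surface epithelium-like (all genes 15.4%), 9 of 35 for mesonephric mesenchyme-like (all genes 7.47%) and 3 of 34 for contractile-like nuclei (all genes 8.04%). For pericyte-like over contractile-like nuclei it was 1 of 30 (all genes 4.63%). On the same side lay 11 of 11 for endothelial-like (all genes 76.8%), 5 of 6 for surface epithelium-like (all genes 78.2%), 6 of 9 for mesonephric mesenchyme-like (all genes 72.6%) and 2 of 3 for contractile-like nuclei (all genes 73.0%). For pericyte-like over contractile-like nuclei 0 of 1 did (all genes 70.2%). In the contractile-like comparison 23 of 34 genes had only the RNA ratio off 1 (all genes 27.7%). Shares with intervals off 1 depend on the UMIs and cuts of a gene, which were not matched between the collagens and all genes. The peaks are those called on all nuclei together.

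**Figure D5:**
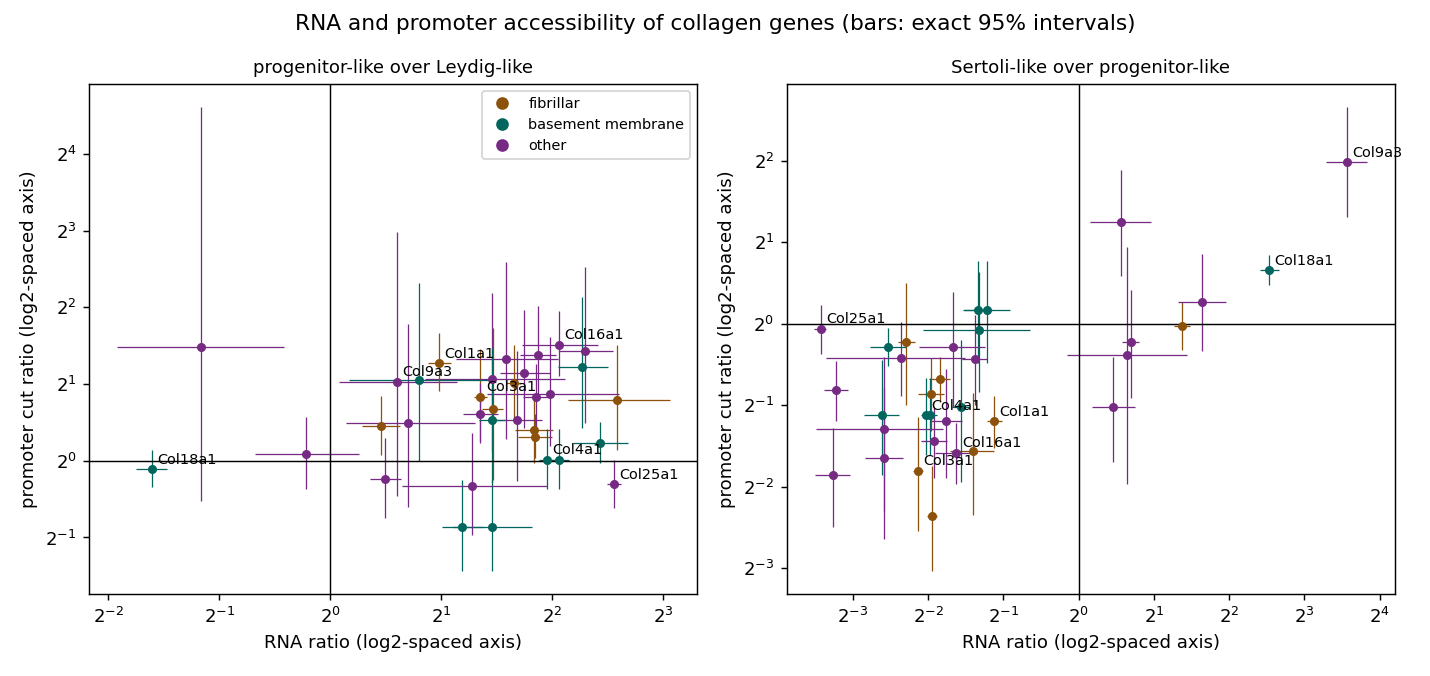
Ratio of RNA (x axis) and of promoter cuts (y axis), both log2-spaced, for collagen genes between progenitor-like and Leydig-like nuclei (left) and between Sertoli-like and progenitor-like nuclei (right), coloured by group; bars are exact 95% intervals of counting error. Col25a1 and Col4a1 lie far right of 1 but near 1 on the y axis in the left panel (0.809 and 1.01), while Col9a3 and Col18a1 lie above 1 on both axes in the right panel.

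Genes that serve collagens were taken as 5 lists. Of the prolyl and lysyl hydroxylases, chaperones and other folding factors, 5 of 18 were at least 2-fold higher in progenitor-like than Leydig-like nuclei and none at least 2-fold lower. The processing proteases and crosslinking lysyl oxidases gave 8 of 11 higher and none lower, the fibril regulators 5 of 9 and none, the basement membrane partners 6 of 10 and none, and the collagen receptors 3 of 8 higher and 1, Itga2, lower; 15.4% and 12.0% of all genes were higher and lower. Between contractile-like and progenitor-like nuclei 18, 11, 10, 10 and 8 genes of these lists were tested, and 3 were higher and 1 was lower by as much, while 1.94% and 4.69% of all genes were: Colgalt2, Fmod and Postn were at least 2-fold higher in contractile-like nuclei, and Tll1 was at least 2-fold lower (Fmod was named after its values were seen).

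In each list the 3 genes with the largest ratio of highest to lowest level are given, a lowest level under 3 UMIs being set to 3 UMIs of that class. Where several classes had no UMI, as for Pcolce2, the largest of them set this floor; for Lair1, Adgrg1 and Fmod, not among the 3, it was set by the few pericyte-like nuclei, so the choice depended on which class was at 0. P3h2, a prolyl 3-hydroxylase of basement membrane collagen, was 436 CPM in contractile-like and 52.5 CPM in Leydig-like nuclei; P4ha3 ranged from 1.01 to 20.9 CPM and Colgalt2 from 0.633 to 54.5 CPM. Tll1, a protease that trims procollagen, was 443 CPM in endothelial-like, 213 in progenitor-like and 36.2 in contractile-like nuclei. Loxl3 ranged from 1.27 to 22.4 CPM and Pcolce2 was at most 5.7 CPM. Postn and Thbs2 were highest in mesonephric mesenchyme-like nuclei, 131 and 23.6 CPM, and Tnxb in Leydig-like nuclei, 19.4 CPM.

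The laminin chains differed by class: Lama1 was 468 CPM in Sertoli-like and 184 in progenitor-like nuclei, Lama4 was 445 CPM in endothelial-like nuclei, and Lama5 30.7 CPM in Pax8-led and 29.2 in surface epithelium-like nuclei. Lama1 thus stood highest in the class where Col4a1 was among the lower ones. Among the receptors, Itga1 was 1605 CPM in pericyte-like and 229.6 in endothelial-like nuclei, Itga2 314 CPM in endothelial-like and 5.71 in Leydig-like nuclei, and Ddr2, which binds fibrillar collagen, 199 CPM in mesonephric mesenchyme-like, 85.8 in progenitor-like and 13.2 in Sertoli-like nuclei.

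The genes most like 6 of the collagens were found by Pearson's r of log2(CPM + 1) over the 12 classes of at least 60 nuclei, among 10908 other genes with at least 500 UMIs; all points come from 1 library and share its depth, so r is a description. For Col1a1 these were Dcn (r = 0.97), Mfap4 (0.95) and Ccn4 (0.95). Dcn encodes decorin, a proteoglycan of fibrils. Col3a1 was closest to Cdh11 (r = 0.98), Emilin1 (0.97) and Ghr (0.97), and Col4a1 to Uaca (r = 0.96) and Bdnf (0.96). For Col4a3 they were Trabd2b (r = 0.94), St8sia2 (0.91) and Ntng1 (0.91), all highest in contractile-like nuclei, and for Col25a1 Adam23 (r = 0.93), Srpx2 (0.93) and Syt1 (0.93), all highest in progenitor-like nuclei, where Adam23 was also one of the class markers. Col9a1, with 98 UMIs, was closest to Sos1 (r = 0.96), Dnaaf5 (0.96) and Katnal2 (0.96).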

How the data were processed

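The authors ran Cell Ranger ARC 2.0.1 on the mm10 genome at default settings, under which intronic reads count, and deposited 1 matrix of counts for the 9833 barcodes called as nuclei, shared by both libraries and not filtered further: 122049390 UMIs of RNA and 38243814 transposase cuts in 109215 peaks. Nuclei were kept with at least 500 genes, at most 10% mitochondrial, 10% ribosomal and 0.5% hemoglobin UMIs, 250 to 25000 fragments at peaks and at least 20% of fragments there (7668 nuclei). Scrublet (scanpy 1.11.5) ranked doublets and the top 6.13% were removed, since its automatic threshold marked 17.5%. Seurat 5.3.0 (R 4.3.3) clustered the rest on RNA and chromatin jointly at resolution 0.6. Each assay had 30 components, of which the 1 chromatin component most correlated with depth was left out. The 44 collagen genes and 387 peaks inside them or within 10 kb of their starts were left out too. Clusters were named from marker lists.

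UMIs were summed per class. Levels have exact Poisson intervals, shares exact binomial (Clopper-Pearson) ones and ratios exact conditional binomial ones (scipy 1.17.1), all at 95% and for counting error only. Ratios needed 50 UMIs over both classes and promoter ratios 20 cuts; calls needed 2-fold. The most similar genes used log2(CPM + 1). Free RNA was estimated from markers of other classes in the Sertoli, Leydig, germ, endothelial and immune lists, without mesenchymal or surface epithelium markers. Named genes outside the collagens were the 3 with the largest ratio of highest to lowest level (at least 3 UMIs) in each list with at least 100 UMIs, and the 3 most similar to 6 collagens. Some single genes are left out of the text. The ratios and their intervals were also run on simulated Poisson counts. These hold no spread between nuclei, no doublets and no free RNA, so the run cannot speak to those. Members and lists were chosen with earlier results of these data known.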

Additional observations from a re-analysis of the deposited data

How the results depend on the processing

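With 1 library per assay nothing below measures variation between animals. The fibrillar ratio of progenitor-like over Leydig-like nuclei (2.71), the ratio of the other genes in that comparison (4.06), and the basement membrane ratios of Sertoli-like (0.368) and endothelial-like (0.992) over progenitor-like nuclei were recomputed under each alternative and are given in that order. Without doublet removal they were 2.21, 3.27, 0.393 and 0.921, and at the automatic doublet threshold 3.56, 5.86, 0.307 and 1.19. With free RNA subtracted they were 3.81, 6.55, 0.253 and 1.41, with each nucleus weighted equally 3.03, 5.31, 0.330 and 1.02, and at resolution 0.3 they were 2.83, 3.37, 0.394 and 1.06. Resolution 0.3 gave no contractile-like class and a progenitor-like class of 3271 nuclei, against 2276 in the main run. The fibrillar ratio and that of the other genes were 2.11 and 3.11 under stricter minimums of genes and fragments, 2.36 and 2.68 at resolution 0.9, 2.62 and 3.66 with classes from RNA alone, and 2.62 and 3.71 with classes from chromatin alone. The basement membrane ratios were 0.341 and 0.958 under median-of-ratios scaling, and 0.356 and 1.05 without nuclei over 50000 UMIs. The endothelial-like ratio thus changed side under 5 alternatives, and no endothelial-like class was found from chromatin alone. The cause was not tested.

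A 3-fold limit called 16 genes higher in progenitor-like and 1 higher in Leydig-like nuclei, and the other 14 alternatives kept both counts within 1.5 times. Between 30 and 32 genes were highest in a mesenchymal class, and between 12 and 19 promoters lay on the side of their RNA. Of 42 genes 38 kept their highest class without nuclei over the automatic threshold, 39 with free RNA subtracted and 28 with classes from chromatin alone, which gave no pericyte-like, endothelial-like, erythroid-like, Pax8-led or Lhx1-led class, so that the 11 genes highest there could not keep theirs and 28 is out of the other 31. Single levels were checked for 86 values, not for all of those printed above. Of these 86, 56 moved beyond their interval without nuclei over the automatic threshold, an alternative chosen after seeing the data. As many moved with nuclei over 50000 UMIs left out too, also chosen after seeing the data, and 76 with free RNA subtracted. Among the 35 gene ratios of progenitor-like over Leydig-like nuclei, that of Col8a1 turned to 2.44 without nuclei over the automatic threshold. No paired analysis was possible because each assay had 1 sample.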
